A study of Mus musculus with 16 samples.

Results

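Gm34302, Gm12295, ENSMUSG00000120208, ENSMUSG00000120166 and ENSMUSG00000121059 are 5 of the 56953 genes counted in mouse left ventricles that differed in RBM20 genotype and in the virus they had received. The 5 were taken by identifier as unnamed or predicted genes whose levels differed between the groups, so the contrasts below are those on which they were chosen, and their values are given as a description without p-values. All 5 passed the filter on low counts, which left 18662 genes. They were proposed as noncoding transcripts, and 1 of them is not: Gm34302 (ENSMUSG00000103476) is annotated as protein-coding in GENCODE M21, and RefSeq lists the same gene as Strit1, with the synonym DWORF. Gm12295 (ENSMUSG00000085162) is a long noncoding RNA gene in both annotations. The other 3 identifiers have no symbol in the deposited tables and no entry in the annotations used here, so whether they encode a protein is unknown here.

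The mice were of the Bl6J background, males and females. WT mice were compared with mice homozygous for the P635L mutation of RBM20, a nuclear splicing factor of heart and skeletal muscle whose targets include titin and calcium-handling genes. At 4 weeks of age every mouse, controls included, received 1e12 viral genomes of AAV9 through the tail vein. Tnpo3 virus delivered the cDNA of Tnpo3, an import receptor that carries serine- and arginine-rich proteins into the nucleus, and Ctr virus delivered pCAG-iCre-T2A-eGFP, which encodes Cre recombinase and a green fluorescent protein behind the ubiquitous CAG promoter, so the virus groups differ in both cargoes. Left ventricles were collected 12 weeks later, at 16 weeks of age, from 4 mice per combination of genotype and virus, called WT Ctr, P635L Ctr, WT Tnpo3 and P635L Tnpo3, and polyadenylated RNA was sequenced. A missense allele leaves the Rbm20 transcript in place, so its count does not check the genotype labels.

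Strit1 encodes a micropeptide of the sarcoplasmic reticulum of striated muscle. The peptide binds the calcium pump SERCA and relieves its inhibition by phospholamban, and it was found in a transcript first catalogued as noncoding, which is how such genes come to carry a predicted-gene name. Long noncoding RNAs such as Gm12295 are transcribed and often spliced like messenger RNAs, without a conserved reading frame, and many are expressed in few cell types and lie close to genes of the same tissue.

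The coding sequence of Gm34302 is shown because it is the part of the gene that decides its class: 105 bases with 34 codons before the stop (GENCODE M21, GRCm38, chr3:63481290-63483827, minus strand, spliced). The start and stop codons are in capitals.
Gm34302-201: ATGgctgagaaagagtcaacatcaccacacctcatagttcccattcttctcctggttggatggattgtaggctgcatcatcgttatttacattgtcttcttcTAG
The 250 bases before the RefSeq start of the 2 genes with an entry are shown because their levels differed in opposite directions (RefSeq, GRCm38.p6, both on the minus strand, Strit1 at chr3:63483907-63484156 and Gm12295 at chr11:65287834-65288083). Capitals mark matches, on either strand, to the motifs searched, which were the TATA box TATAAA, the GATA-factor motif AGATAA, the TEAD-factor motif CATTCC, the T-box motif AGGTGTGA and the E box CANNTG.
Strit1: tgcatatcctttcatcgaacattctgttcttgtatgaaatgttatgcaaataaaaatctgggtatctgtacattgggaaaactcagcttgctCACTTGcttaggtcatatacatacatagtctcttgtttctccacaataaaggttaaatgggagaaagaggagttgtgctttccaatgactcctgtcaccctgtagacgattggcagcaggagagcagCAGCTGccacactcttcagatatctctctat
Gm12295: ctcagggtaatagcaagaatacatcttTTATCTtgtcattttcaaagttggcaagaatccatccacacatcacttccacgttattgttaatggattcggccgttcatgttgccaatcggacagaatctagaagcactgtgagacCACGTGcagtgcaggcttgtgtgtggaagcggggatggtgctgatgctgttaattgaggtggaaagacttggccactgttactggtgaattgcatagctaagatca
The Gm12295 window lies before the start of Gm12295-201, one annotated form of the gene. It is inside an intron of another annotated form, which starts further upstream. The bases before that other start are not shown, so the window need not be the promoter behind the Gm12295 level. Strit1 held 2 E boxes (CANNTG), and Gm12295 held 1 E box and 1 GATA motif (AGATAA). An E box was present in 66.2% and the GATA motif in 9.99% of the 32851 promoter windows of this length. The remaining motifs had no match in either window.

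Library totals lay between 28493249 and 85922669 counts. Tnpo3 CPM (the count scaled to library size with trimmed-mean normalisation) was 41.6 to 49.4 in the 8 libraries with Ctr virus and 231 to 723 in the 8 with Tnpo3 virus, without overlap. Tnpo3 rose in WT Tnpo3 against WT Ctr (log2 2.84, SE 0.3, edgeR adjusted p = 0.000814) and was the only gene called there. That call was lost without the libraries rich in ENSMUSG00000119584 (log2 2.64, edgeR adjusted p = 0.281) and without those with Xist above Y-linked genes (log2 2.55, edgeR adjusted p = 0.102), and DESeq2 called 4 genes. The gene ENSMUSG00000119584 took over 10% of the counts in WT Ctr replicates 2 and 4 and WT Tnpo3 replicate 4, and Xist exceeded Y-linked genes in WT Ctr replicate 4 and WT Tnpo3 replicates 2 and 4 and in 0 of the 8 P635L libraries. Libraries with Xist above Y-linked genes, as in females, were thus all WT, so by this measure sex was not balanced between the genotypes. Cardiomyocyte markers were present in every library (6 of 6 listed, summed 40716 to 67259 CPM), and Myh6 and Tnni3, 2 of the 6, fell in P635L Ctr against WT Ctr. The Myh6 call was lost in 6 of 26 alternatives, among them leaving out the libraries rich in ENSMUSG00000119584 (log2 -0.45, edgeR adjusted p = 0.172). Of other cell types, the fibroblast markers Col1a1, Dcn, Pdgfra and Lum, 4 of 5 listed, rose in P635L Ctr against WT Ctr and fell in P635L Tnpo3 against P635L Ctr, with summed levels of 830 to 1357 CPM in WT Ctr, 1265 to 1900 in P635L Ctr and 917 to 1292 in P635L Tnpo3. The calls of Col1a1 and Dcn between the mutant groups were lost in 17 and 4 of 26 alternatives. Of the 4 skeletal muscle markers, Mybpc2 and Tnnt3, fast-fibre contractile genes, rose in P635L Ctr against WT Ctr (log2 3.83 and 3.3, edgeR adjusted p = 1.3e-06 and 4.67e-07) and fell between the mutant groups (log2 -1.82 and -1.65, edgeR adjusted p = 0.00345 and 0.0013), while Ckm fell in the first comparison (log2 -1.03, edgeR adjusted p = 0.00102). The 4 summed to 1165 to 1525 CPM in WT Ctr, 761 to 1167 in P635L Ctr and 846 to 1317 in P635L Tnpo3, with Myh4, the defining myosin of fast fibres, at 0 in all libraries of each of these groups. Atrial markers, 4 genes, summed to 151 to 410 CPM in WT Ctr, 5138 to 9804 in P635L Ctr and 919 to 4511 in P635L Tnpo3, and 1 of the 2 tested among them, the natriuretic peptide gene Nppa, changed in both comparisons, the second call being lost in 8 of 26 alternatives. The other tested, Myl4, was not called in either (log2 0.55 and -0.73, edgeR adjusted p = 0.279 and 0.222), though 1 alternative called it in each. Sln, also listed, averaged 0.33 CPM in WT Ctr and 0.00471 in P635L Ctr. The sums thus do not describe the atrial list as a whole. Strit1, Gm12295, ENSMUSG00000120208 and ENSMUSG00000121059 differed in the same comparisons as these markers, and the part of cell composition in their levels was not tested. In ventricular tissue, fewer cells of a type and less RNA per cell cannot be told apart.

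Strit1 (Gm34302) was nearly undetected in mutant hearts given Ctr virus and partly present in mutant hearts given Tnpo3 virus. Its CPM was 54.3, 67.2, 39.1 and 35.9 in WT Ctr replicates 1 to 4, and 56.8, 38.7, 59.2 and 32.5 in WT Tnpo3. In P635L Ctr it was 0.115, 0.0211, 0.182 and 0.0188, from 5, 2, 8 and 1 counts. In P635L Tnpo3 it was 2.03, 3.95, 12 and 13.1. The WT libraries were all high, the P635L Ctr libraries all at the floor of detection, and the P635L Tnpo3 libraries lay between without overlap on either side. The 16 counts of P635L Ctr correspond to a pooled level of 0.0681 CPM, with an exact 95% Poisson interval of 0.0389 to 0.111 that covers counting error only. Group means were 49.1 ± 14.5 CPM (SD, n = 4) in WT Ctr, 46.8 ± 13.2 in WT Tnpo3, 0.0844 ± 0.0793 in P635L Ctr and 7.77 ± 5.59 in P635L Tnpo3. On the log2 scale the difference was -9.40 (SE 0.78) for P635L Ctr against WT Ctr, 6.74 (SE 0.78) for P635L Tnpo3 against P635L Ctr and -2.65 (SE 0.49) for P635L Tnpo3 against WT Ctr. Without P635L Ctr replicate 3, which held 8 of the 16 counts, the first of these Strit1 values was -10.07 and the second 7.42. Over all fits that left out 1 library, the first ranged from -10.07 to -8.86 and the second from 6.25 to 7.42. Within P635L Tnpo3, replicates 3 and 4 were above replicates 1 and 2, while Tnpo3 itself was 359, 723, 543 and 234 CPM in replicates 1 to 4, so the library with the least Tnpo3 held the most Strit1.

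**Figure D1:**
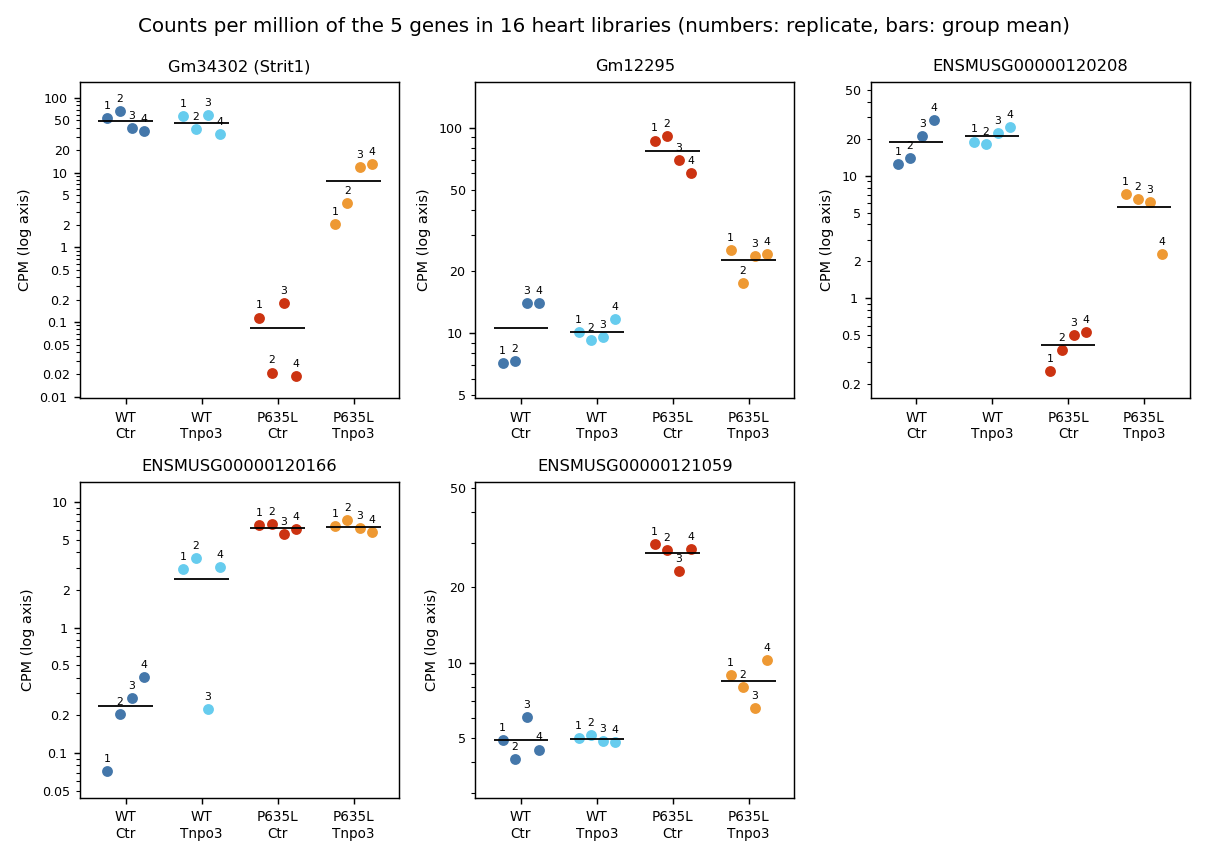
CPM on a log axis (y) of the 5 genes by group (x). Each point is 1 library with its replicate number and each bar the group mean; Strit1 and ENSMUSG00000120208 are lowest in P635L Ctr, Gm12295 and ENSMUSG00000121059 are highest there, and ENSMUSG00000120166 is split within WT Tnpo3.

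Groups that do not overlap were common in these data, so the pattern of the 5 genes was read against all genes tested. In P635L Ctr against WT Ctr all 5 separated the groups, as did 19.1% of all tested genes, and 14.2% of all tested genes were called changed at an adjusted p under 0.05 (edgeR), 7.07% higher and 7.14% lower. In P635L Tnpo3 against P635L Ctr 4 of the 5 separated the groups, against 20.4% of all tested genes, of which 3.88% were called, 1.63% higher and 2.25% lower. For WT Tnpo3 against WT Ctr 0 of the 5 did, against 1.09% of all tested genes, and 0.00536% were called. For P635L Tnpo3 against WT Ctr all 5 did, against 11.7% of all tested genes, of which 3.07% were called, 1.49% higher and 1.58% lower. The genes were chosen on these contrasts, and nothing is read from the counts.

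The calcium pump that Strit1 acts on, and the other small proteins that bind it, were examined because Gm34302 is Strit1; they were chosen after its identity was known. Atp2a2, which encodes the cardiac SERCA pump, was at 5486 ± 867 CPM (SD, n = 4) in WT Ctr, 6855 ± 2823 in WT Tnpo3, 3432 ± 543 in P635L Ctr and 3810 ± 628 in P635L Tnpo3. Its log2 difference in P635L Ctr against WT Ctr was -0.68 (SE 0.23, edgeR adjusted p = 0.0607), and in P635L Tnpo3 against P635L Ctr 0.15 (SE 0.23, edgeR adjusted p = 0.799). Pln, which encodes phospholamban, the main inhibitor of the pump in the ventricle, was at 1176 ± 48.9 CPM in WT Ctr and 1018 ± 125 in P635L Ctr, a log2 difference of -0.21 (SE 0.17, edgeR adjusted p = 0.441). Pln stood at 942 ± 116 CPM in P635L Tnpo3, 0.11 lower than in P635L Ctr on the log2 scale (SE 0.17, edgeR adjusted p = 0.791). Mrln, which encodes the SERCA inhibitor myoregulin of skeletal muscle, was at 0.949 ± 0.174 CPM in WT Ctr and 1.55 ± 0.449 in P635L Ctr (log2 0.69, SE 0.38, edgeR adjusted p = 0.244). Sarcolipin, the atrial inhibitor encoded by Sln, was at most 1.03 CPM in any library and was not tested. None of Atp2a2, Atp2a1, Pln and Mrln passed the threshold in any of the 5 comparisons between groups or in the interaction. Atp2a2 in P635L Ctr against WT Ctr was called in 5 of 26 alternatives, with edgeR adjusted p = 0.0125 from the compared groups alone and a DESeq2 adjusted p = 0.0259. In P635L Tnpo3 against WT Tnpo3 Atp2a2 differed by -0.85 (SE 0.23, edgeR adjusted p = 0.0511) and was called in 7 alternatives. Pln differed there by -0.5 (SE 0.17, edgeR adjusted p = 0.1) and was called in 3.

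Strit1 spans 2768 bases of chromosome 3 (GRCm39, chr3:63388533-63391300, minus strand), with 243 exon bases in 3 exons. Within 100 kb lie 4 other genes, of which Mme alone was tested. The closest, Gm37279, starts 5 bases upstream on the opposite strand and had 3 counts in all 16 libraries together. Mme encodes neprilysin, a membrane peptidase that degrades natriuretic peptides, and lies 95.1 kb downstream on the opposite strand. Mme CPM was 6.55, 8.33, 6.33 and 7.82 in WT Ctr, 8.41, 7.06, 7.1 and 5.45 in WT Tnpo3, 1.27, 1.15, 1.98 and 2.19 in P635L Ctr, and 1.78, 2.63, 3.78 and 2.5 in P635L Tnpo3. Both P635L groups were below both WT groups without overlap. Mme fell in P635L Ctr against WT Ctr (log2 -2.14, SE 0.25, edgeR adjusted p = 9.24e-06) and was lower in P635L Tnpo3 than in WT Ctr (log2 -1.44, edgeR adjusted p = 0.0021). Between the mutant groups its difference was 0.71 (SE 0.24, edgeR adjusted p = 0.114), against 6.74 for Strit1. On the other side the nearest tested gene, E130311K13Rik, was 430805 bases upstream and differed by 0.54 (SE 0.15, edgeR adjusted p = 0.0239) in P635L Ctr against WT Ctr, a call that was lost in 5 of 26 alternatives, each leaving out 1 library (WT Ctr replicate 3 or 4, or P635L Ctr replicate 1, 3 or 4), with adjusted p up to 0.0692.

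**Figure D2:**
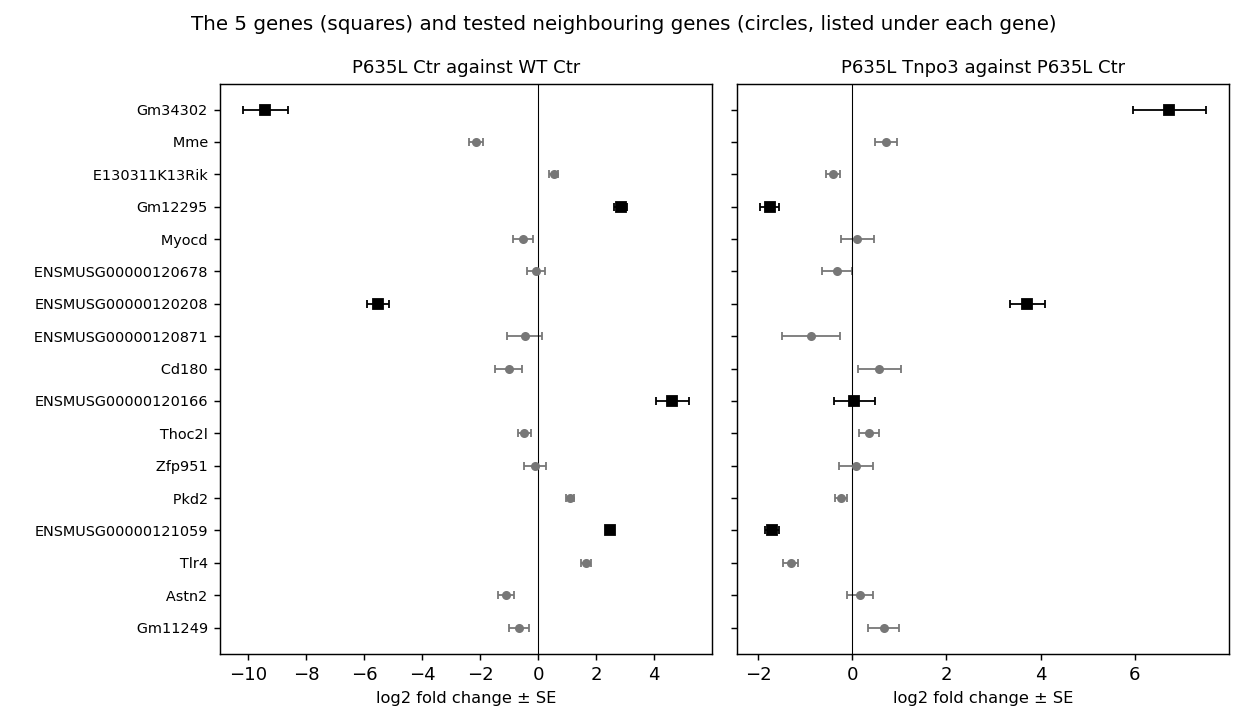
Log2 fold change with its SE (x) for the 5 genes (squares) and the tested neighbouring genes listed under each (circles), for P635L Ctr against WT Ctr (left) and P635L Tnpo3 against P635L Ctr (right). Mme, Cd180 and Tlr4 lie on the same side of 0 as the gene they neighbour in both panels, and of these Tlr4 alone was called in both comparisons. In the left panel no neighbour differs by as much as its square. In the right panel ENSMUSG00000120166 lies at 0.04, closer to 0 than its neighbours Thoc2l, Zfp951 and Pkd2.

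ENSMUSG00000120208 showed the same ordering of groups as Strit1. Its CPM was 12.4, 14, 20.9 and 28.5 in WT Ctr and 19, 18, 22.2 and 25.1 in WT Tnpo3. It was 0.253, 0.38, 0.502 and 0.527 in P635L Ctr and 7.13, 6.47, 6.15 and 2.31 in P635L Tnpo3. The P635L Tnpo3 libraries were above all P635L Ctr libraries and below all WT libraries, and the lowest of them, replicate 4, was the one with the least Tnpo3 and the most Strit1. Means were 18.9 ± 7.34 CPM (SD, n = 4) in WT Ctr, 21.1 ± 3.24 in WT Tnpo3, 0.416 ± 0.126 in P635L Ctr and 5.51 ± 2.17 in P635L Tnpo3. Differences on the log2 scale were -5.51 (SE 0.38) for P635L Ctr against WT Ctr, 3.72 (SE 0.37) for P635L Tnpo3 against P635L Ctr and -1.79 (SE 0.31) for P635L Tnpo3 against WT Ctr.

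This gene has 5 exon blocks with 2590 bases on chromosome 13 (GRCm39, chr13:102486158-102494740, plus strand) and stands apart from other expressed genes. The only gene within 100 kb, Gm47008, had 2 counts in all libraries. The nearest tested genes were ENSMUSG00000120871, 262 kb upstream, and Cd180, 335 kb downstream, which encodes a receptor of B cells and macrophages related to the Toll-like receptors. Neither passed the threshold in P635L Ctr against WT Ctr (Cd180, log2 -1.01, SE 0.46, edgeR adjusted p = 0.159), and the Cd180 value was -0.10 without WT Ctr replicate 1. The authors' deposited splicing tables hold 6 exon-skipping events of this gene in each of 3 comparisons with WT Ctr, and 0 of them were called at a false discovery rate under 0.05 with an inclusion difference of at least 0.1. Over the 4 P635L Ctr libraries at most 13 inclusion reads and 10 skipping reads were counted for any event.

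Gm12295 was highest in mutant hearts given Ctr virus. Its CPM was 7.16, 7.34, 14 and 14.1 in WT Ctr and 10.2, 9.33, 9.56 and 11.7 in WT Tnpo3. It was 86.6, 91.4, 69.6 and 60.3 in P635L Ctr and 25.5, 17.5, 23.9 and 24.3 in P635L Tnpo3. Every P635L Tnpo3 library was below every P635L Ctr library and above every WT library. Means were 10.6 ± 3.92 CPM (SD, n = 4) in WT Ctr, 10.2 ± 1.08 in WT Tnpo3, 77 ± 14.6 in P635L Ctr and 22.8 ± 3.59 in P635L Tnpo3. Differences on the log2 scale were 2.85 (SE 0.22) for P635L Ctr against WT Ctr, -1.76 (SE 0.21) for P635L Tnpo3 against P635L Ctr and 1.09 (SE 0.21) for P635L Tnpo3 against WT Ctr.

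The gene spans 92330 bases of chromosome 11 (GRCm39, chr11:65164428-65256757, minus strand), with 7506 exon bases in 12 blocks. Its downstream neighbour on the same strand, Myocd, begins 3613 bases beyond its end in the direction of transcription and encodes myocardin, a transcriptional coactivator of smooth and cardiac muscle genes. Myocd did not share the ordering of Gm12295. Myocd CPM was 12.3, 35.2, 16.6 and 38.5 in WT Ctr, 25.8, 18.2, 15.4 and 42 in WT Tnpo3, 17, 16.2, 19.4 and 18.8 in P635L Ctr, and 23.2, 17.3, 23 and 13.2 in P635L Tnpo3. Groups overlapped, and the log2 difference of P635L Ctr against WT Ctr was -0.52 (SE 0.35, edgeR adjusted p = 0.358). It turned to 0.34 without the libraries rich in ENSMUSG00000119584, among them WT Ctr replicates 2 and 4, where Myocd was highest. The ratio of Gm12295 to Myocd CPM averaged 0.501 in WT Ctr (0.209 to 0.843), 0.452 in WT Tnpo3 (0.279 to 0.62), 4.38 in P635L Ctr (3.2 to 5.63) and 1.25 in P635L Tnpo3 (1.01 to 1.85), where the ratio depends on Gm12295 as chosen.

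Gm12295 was also the only one of the 5 genes with a splicing event called in the authors' deposited tables: 2 of its 9 events in WT Ctr with P635L Ctr, where 2.87% of all 44612 events were called. Both are alternative acceptor sites after the same 163-base exon. The junctions are shown as the sequence of each spliced form (GENCODE M21, GRCm38, minus strand), with the first bases of the acceptor exon in capitals. The form Gm12295-201 joins to an exon of 83 bases (intron at chr11:65285946-65287019), and Gm12295-202 joins 83 bases earlier (intron at chr11:65286029-65287019). The splice to the exon of 83 bases is called the short form below.
Gm12295-201: caactgcctacagagAGAAACTCTTCTGGA
Gm12295-202: caactgcctacagagTATAGAGATTAAGTT
In the deposited table, the event that sets the acceptor 83 bases upstream against the short form has 2, 4, 2 and 8 inclusion reads in the WT Ctr libraries and 53, 166, 57 and 95 in the P635L Ctr libraries. These inclusion reads are not confined to that acceptor's own junction. The short form has 0 reads in all WT Ctr libraries and 4, 14, 9 and 6 in P635L Ctr. In the event that sets the acceptor 83 bases upstream against the one 239 bases upstream, its own reads numbered 0 in all WT Ctr libraries and 18, 74, 15 and 37 in P635L Ctr, and that event was not called. Inclusion against the short form was 1.0 in all WT Ctr libraries and 0.883, 0.871, 0.783 and 0.9 in P635L Ctr, a difference of 0.141 (rMATS FDR 0.000553). For the acceptor 239 bases upstream the difference was 0.181 (rMATS FDR 0.000177). The short form was read 33 times in P635L Ctr, and the WT Ctr libraries together held 16 reads for the event, so their inclusion rests on few reads. The 7 events tabulated for WT Ctr with P635L Tnpo3 and the 4 for WT Ctr with WT Tnpo3 included 0 called, where 2.31% and 1.17% of all events were called.

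ENSMUSG00000121059 followed the pattern of Gm12295 with narrow groups. Its CPM was 4.92, 4.13, 6.08 and 4.49 in WT Ctr and 4.98, 5.15, 4.86 and 4.82 in WT Tnpo3. It was 29.9, 28.3, 23.3 and 28.6 in P635L Ctr and 8.93, 7.98, 6.56 and 10.2 in P635L Tnpo3. All P635L Ctr libraries were above all others, and the lowest P635L Tnpo3 library was above the highest WT library. Means were 4.91 ± 0.85 CPM (SD, n = 4) in WT Ctr, 4.95 ± 0.144 in WT Tnpo3, 27.5 ± 2.9 in P635L Ctr and 8.41 ± 1.53 in P635L Tnpo3. Differences on the log2 scale were 2.48 (SE 0.15) for P635L Ctr against WT Ctr, -1.71 (SE 0.14) for P635L Tnpo3 against P635L Ctr and 0.77 (SE 0.15) for P635L Tnpo3 against WT Ctr.

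The gene is a single exon of 1557 bases on chromosome 4 (GRCm39, chr4:66762713-66764269, plus strand) that lies wholly inside an intron of Tlr4, on the same strand and with 0 shared exon bases. It starts 16.9 kb into Tlr4, 1675 bases after one Tlr4 exon and 78333 bases before the next, in an intron of 81565 bases. Tlr4 encodes the receptor for bacterial lipopolysaccharide, which acts in innate immune cells and also in cardiomyocytes and fibroblasts. Counts alone do not tell RNA of the inner gene apart from unspliced Tlr4 RNA.

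Tlr4 itself rose in the mutant and fell with the virus. Its CPM was 3.87, 6.52, 5.04 and 4.87 in WT Ctr, 6.25, 5.75, 3.77 and 5.32 in WT Tnpo3, 16.3, 16.5, 14.9 and 15.4 in P635L Ctr, and 6.54, 7.17, 5.47 and 6.28 in P635L Tnpo3. Only P635L Ctr stood apart from the other groups. Tlr4 changed by 1.64 in P635L Ctr against WT Ctr (SE 0.17, edgeR adjusted p = 2.83e-06) and by -1.31 in P635L Tnpo3 against P635L Ctr (SE 0.16, edgeR adjusted p = 0.0002), whereas P635L Tnpo3 against WT Ctr gave 0.33 (edgeR adjusted p = 0.305). The effect of the virus on Tlr4 differed between the genotypes by -1.37 (SE 0.23, edgeR adjusted p = 0.0106; 0.504% of all tested genes were called for this difference), and this call was lost without the libraries in which Xist exceeded Y-linked genes (edgeR adjusted p = 0.0691). Beside these changes, the 4 macrophage markers Cd68, C1qa, Adgre1 and Csf1r summed to 135 to 406 CPM in WT Ctr, 116 to 154 in P635L Ctr and 170 to 278 in P635L Tnpo3, with 1 of the 4, Cd68, lower in P635L Ctr than in WT Ctr (log2 -0.88, edgeR adjusted p = 0.0476, lost in 16 of 26 alternatives and -0.41 without WT Ctr replicate 1), while the fibroblast markers given above moved with it. The part of either in the result was not tested.

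The ratio of ENSMUSG00000121059 to Tlr4 was not constant. It averaged 1.01 in WT Ctr (0.633 to 1.27), 0.972 in WT Tnpo3 (0.796 to 1.29), 1.74 in P635L Ctr (1.56 to 1.86) and 1.32 in P635L Tnpo3 (1.11 to 1.62). The P635L Ctr ratios lay above all WT ratios, and the P635L Tnpo3 ratios overlapped with both. The ratio depends on ENSMUSG00000121059 as chosen on these contrasts, so its differences between groups are a description. Whether they reflect RNA other than unspliced Tlr4 RNA was not tested. Per kilobase of exon the inner gene was the more abundant, with a mean of 17.7 RPKM (CPM per kilobase of exon) in P635L Ctr where Tlr4 ranged from 2.69 to 2.97.

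**Figure D3:**
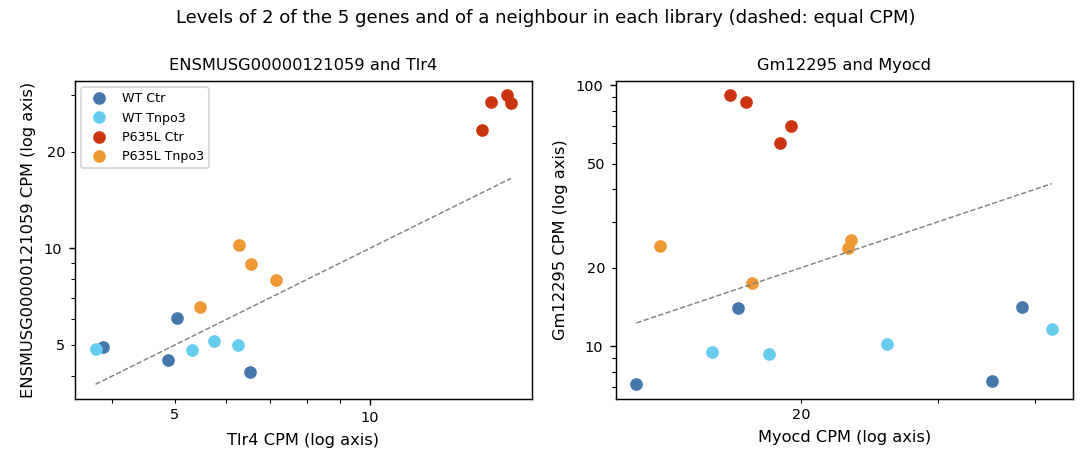
CPM in each library, both axes on a log scale: ENSMUSG00000121059 against Tlr4 (left) and Gm12295 against Myocd (right), coloured by group, with a dashed line at equal CPM. The P635L Ctr libraries are high on both axes on the left and on the vertical axis alone on the right.

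ENSMUSG00000120166 differed from the other 4 genes in that its levels in mutant hearts overlapped between the viruses, while the WT Tnpo3 hearts fell into separate levels. Its CPM was 0.0724, 0.206, 0.274 and 0.406 in WT Ctr, from 2, 5, 10 and 14 counts, and 2.91, 3.58, 0.224 and 3.04 in WT Tnpo3 replicates 1 to 4. It was 6.54, 6.67, 5.52 and 6.07 in P635L Ctr and 6.42, 7.15, 6.21 and 5.72 in P635L Tnpo3. WT Tnpo3 replicate 3 lay among the WT Ctr libraries, and WT Tnpo3 replicates 1, 2 and 4 lay at 46.3%, 57% and 48.3% of the mean of the 8 P635L libraries, between the WT Ctr and the P635L levels. Means were 0.24 ± 0.139 CPM (SD, n = 4) in WT Ctr, 2.44 ± 1.51 in WT Tnpo3, 6.2 ± 0.523 in P635L Ctr and 6.38 ± 0.596 in P635L Tnpo3. Differences on the log2 scale were 4.63 (SE 0.58) for P635L Ctr against WT Ctr and 0.04 (SE 0.44) for P635L Tnpo3 against P635L Ctr, where the groups overlapped. It was 3.28 (SE 0.58) for WT Tnpo3 against WT Ctr, a mean over libraries that did not share a level; in the authors' deposited table WT Ctr over WT Tnpo3 is -3.34. Tnpo3 was 282, 262, 231 and 507 CPM in WT Tnpo3 replicates 1 to 4, so replicate 3 carried the least, although still above every library with Ctr virus.

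The gene has 5 exon blocks with 2966 bases on chromosome 5 (GRCm39, chr5:104719508-104732487, plus strand). Within 100 kb lie 3 genes, of which 2 were tested. Thoc2l, 17435 bases upstream on the same strand, did not pass the threshold (P635L Ctr against WT Ctr, log2 -0.47, SE 0.21, edgeR adjusted p = 0.156). Pkd2, which encodes the cation channel polycystin-2, is the most abundant of the genes in this window over all 16 libraries, although in WT Ctr its mean of 32.1 CPM was below the 39.9 of Thoc2l. Its CPM was 25.5, 28.3, 35.5 and 38.9 in WT Ctr, 36.8, 40.1, 36.1 and 42.1 in WT Tnpo3, 72.5, 71.7, 68.1 and 61.1 in P635L Ctr, and 56.3, 58, 49.3 and 67.3 in P635L Tnpo3. Every P635L library was above every WT library. Pkd2 rose in P635L Ctr against WT Ctr (log2 1.09, SE 0.13, edgeR adjusted p = 1.64e-05) and differed by -0.24 between the mutant groups (SE 0.13, edgeR adjusted p = 0.329).

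The authors' deposited splicing tables add a second readout at this locus. In Thoc2l, 2 exon-skipping events were called in WT Ctr with P635L Ctr (inclusion differences, WT Ctr less the other group, of -0.206 and -0.294, rMATS FDR 0.0106 and 0.0017). The same 2 exons were called in WT Ctr with WT Tnpo3 (-0.208 and -0.300, rMATS FDR 0.0222 and 0.00342) and in WT Ctr with P635L Tnpo3 (-0.162 and -0.308, rMATS FDR 0.0308 and 0.00017), where another exon was also called (0.193, rMATS FDR 0.00688). Each comparison tabulated 4 Thoc2l events. Over all genes, 2.87% of events were called in WT Ctr with P635L Ctr. The shares were 1.17% in WT Ctr with WT Tnpo3 and 2.31% in WT Ctr with P635L Tnpo3. The 3 comparisons share the WT Ctr libraries, and 10 of the 14 skipping reads of the second exon in WT Ctr come from a single library. Skipping reads over 4 libraries numbered 8 and 14 in WT Ctr, 2 and 3 in P635L Ctr, and 1 and 2 in WT Tnpo3, so each difference rests on few reads. The single event tabulated for ENSMUSG00000120166 itself was not called in any comparison.

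The genes whose levels over the 16 libraries were most like ENSMUSG00000120166 also lay on chromosome 5. Likeness was measured as Pearson's r of log2 CPM with the 12489 tested genes whose mean log2 CPM was at least 1. Libraries of a group mostly share a level, so r describes mainly the order of the groups and has no test. For ENSMUSG00000120166 it also reflects the split within WT Tnpo3. The closest were ENSMUSG00000120047 (r = 0.965), Thap6 (0.931), Pkd2 (0.865), Gm16316 (0.863) and Aasdh (0.862), and the most opposite were Zfp605 (-0.882) and Fmn1 (-0.88). All except Gm16316 and Fmn1, both on chromosome 2, are on chromosome 5, at 0.112 to 27.7 Mb from the gene. Among the 20 genes with the largest r of either sign, a number set after these positions were seen, 11 were on chromosome 5, within the stretch from 64313648 to 112400384, whereas 6.38% of the genes compared are on that chromosome. The same count for the other 4 genes, each with its own chromosome, was 1 for Strit1, 2 for Gm12295, 2 for ENSMUSG00000120208 and 1 for ENSMUSG00000121059.

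The like genes repeated the split of the WT Tnpo3 group to differing degrees. ENSMUSG00000120047 CPM was 1.88 to 2.85 in WT Ctr and 8.44, 7.69, 2.1 and 5.38 in WT Tnpo3 replicates 1 to 4, against 8.59 to 10.9 in P635L Ctr. Thap6, a zinc-finger protein gene, was at 4.19, 4.84, 2.49 and 3.6 CPM in WT Tnpo3, with replicate 3 again lowest. Zfp605, a zinc-finger protein gene with the reverse order, was at 6.31, 7.92, 13.7 and 5.19 CPM in WT Tnpo3, 9.3, 10.9, 11.6 and 9.68 in WT Ctr, and 1.97 to 3.64 in the P635L libraries. Aasdh, which encodes an acyl-CoA synthetase family member, was at 14.4, 10.8, 10.1 and 12.8 CPM in WT Tnpo3, against 9.45 to 9.88 in WT Ctr and 16.3 to 23.6 in P635L libraries. In each of these 4 genes WT Tnpo3 replicate 3 was the library of its group nearest to the WT Ctr levels or beyond them on the side away from P635L. Pkd2 did not show the split, since replicate 3, at 36.1 CPM, lay beside replicate 1, at 36.8. WT Tnpo3 replicate 3 did not carry over 10% of its counts in ENSMUSG00000119584, nor did its Xist counts exceed those of Y-linked genes. The labels give no genotype for chromosome 5. A difference in chromosome 5 sequence between mice, such as a segment derived from another strain, cannot be told apart here from the mutation in the value of 4.63 or from the virus in the value of 3.28 for ENSMUSG00000120166, and it was not tested.

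**Figure D4:**
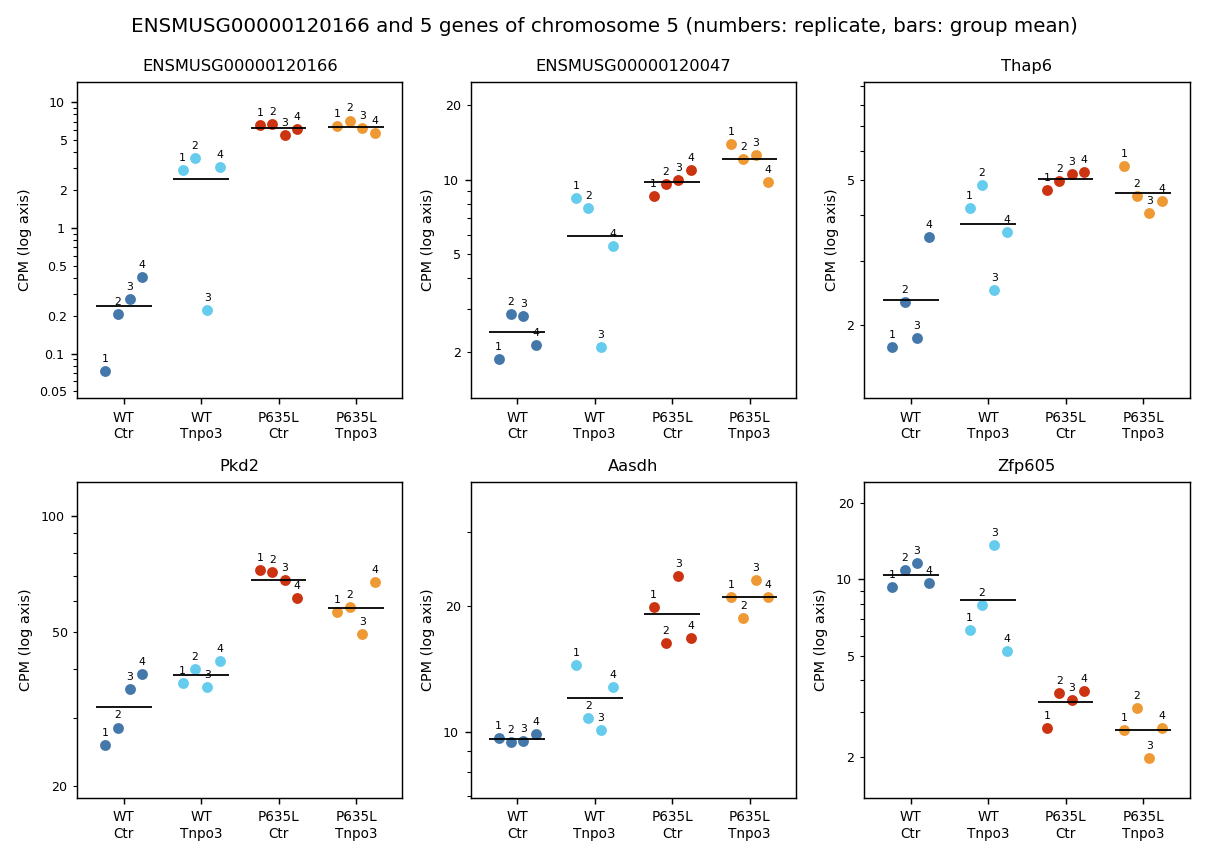
CPM on a log axis (y) of ENSMUSG00000120166 and 5 genes of chromosome 5 in the 4 groups (x), each point 1 library with its replicate number and each bar the group mean. In WT Tnpo3, replicate 3 lies at the WT Ctr level in ENSMUSG00000120166 (0.224 CPM) and ENSMUSG00000120047 (2.1 CPM), apart from replicates 1, 2 and 4.

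Genes most like the other 4 were spread over chromosomes. For Strit1 they were Ogdhl (r = 0.973), Lgi1 (0.97), Tmem131l (0.961), Pxmp2 (0.96) and Pm20d1 (0.959), and for ENSMUSG00000120208 Sbk1 (0.981), Pm20d1 (0.977), Cpeb3 (0.972), Pde1c (0.97) and Ripor2 (0.97). For Gm12295 they were Cacna1g (0.982), which encodes a T-type calcium channel, Gipc2 (0.971), ENSMUSG00000121059 (0.966), Pdlim3 (0.965) and the fast skeletal troponin gene Tnnt3 (0.963). For ENSMUSG00000121059 they were Prmt2 (0.976), Gm12295 (0.966), Itprip (0.966), Tnnt3 (0.961) and Pdlim3 (0.961). Strit1 and ENSMUSG00000120208 ran in the same direction (r = 0.937) without being among each other's 20 most alike, and both ran opposite to ENSMUSG00000121059 (-0.974 and -0.976). ENSMUSG00000120166 was the least like the rest, with r between -0.648 and 0.679.

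Per kilobase of exon the order of the 5 genes changed with genotype. In WT Ctr, Strit1 led with a mean of 202 RPKM, followed by ENSMUSG00000120208 at 7.32, ENSMUSG00000121059 at 3.15, Gm12295 at 1.42 and ENSMUSG00000120166 at 0.0808. In P635L Ctr, ENSMUSG00000121059 led at 17.7 RPKM, then Gm12295 at 10.3, ENSMUSG00000120166 at 2.09, Strit1 at 0.347 and ENSMUSG00000120208 at 0.16. In P635L Tnpo3, Strit1 was again the highest, at 32 RPKM, and ENSMUSG00000120166 and ENSMUSG00000120208, at 2.15 and 2.13, were neighbours within their spread. By RPKM, Strit1 exceeded 98.6% of tested genes in WT Ctr, 22.4% in P635L Ctr and 93.6% in P635L Tnpo3, each share taken over group means. Strit1 has 243 counted exon bases, so its level per kilobase rests on a short target.

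Over all neighbours, chosen by position alone, 11 genes nearest to the 5 were tested. In P635L Ctr against WT Ctr 4 of the 11 changed, Mme and Astn2 lower and Tlr4 and E130311K13Rik higher, beside 14.2% of all tested genes. Astn2, a neuronal adhesion gene 439865 bases upstream of ENSMUSG00000121059, differed by -1.11 (SE 0.28, edgeR adjusted p = 0.0116), and its call was lost without P635L Ctr replicate 2 (edgeR adjusted p = 0.0528). For P635L Tnpo3 against P635L Ctr 1 of the 11, Tlr4, changed, beside 3.88% of all tested genes. For WT Tnpo3 against WT Ctr 0 of the 11 changed in edgeR, with 0 at an unadjusted p under 0.05 and 0 called by DESeq2. Within 100 kb of the 5 genes lie 10 genes, of which 5 were tested; Mme, Pkd2 and Tlr4 changed in P635L Ctr against WT Ctr, and Tlr4 changed in P635L Tnpo3 against P635L Ctr.

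Known noncoding RNAs of the heart and of general use were counted as a list, of which 46 of 47 were in the table and 40 were tested. In P635L Ctr against WT Ctr 9 rose and 2 fell, beside 7.07% and 7.14% of all tested genes, with a list median of 0.2 on the log2 scale beside -0.05 over all tested genes. The 9 were the small nucleolar RNA host genes Gas5, Snhg5, Snhg8, Snhg11, Snhg12 and Snhg18, with Dnm3os, Mir100hg and Epb41l4aos. The calls of Snhg11 and Snhg8 were lost in 12 and 11 of 26 alternatives. Snhg18 rose from 6.75 ± 1.97 to 19.2 ± 2.4 CPM (SD, n = 4; log2 1.51, SE 0.21, edgeR adjusted p = 8.6e-05), and Gas5 from 46.7 ± 7.35 to 86.3 ± 11.4 CPM (log2 0.89, SE 0.15, edgeR adjusted p = 0.000397). The imprinted RNA H19 fell from 31.6 ± 10 to 12.9 ± 2.41 CPM (log2 -1.29, SE 0.28, edgeR adjusted p = 0.00552), and the low-count antisense gene Hopxos, whose reads cannot be told apart from those of its partner where strand was not used, also fell. Between the mutant groups 0 of the 40 changed in edgeR, beside 3.88% of all tested genes, with 4 at an unadjusted p under 0.05 and 1 called by DESeq2. Gas5, Snhg12 and Snhg18 were higher and H19 was lower in P635L Tnpo3 than in WT Ctr, 4 of the 40 beside 3.07% of all tested genes. Between the WT groups 0 of the 40 changed in edgeR, with 2 at an unadjusted p under 0.05 and 0 called by DESeq2.

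The 5 genes belong to the genes with no symbol, a Gm number or a Rik name, 31569 in the table, of which 3980 passed the filter on low counts. In P635L Ctr against WT Ctr 155 of these rose and 227 fell, 9.6% of those tested, beside 15.5% of the 14682 tested genes with other symbols. With Tnpo3 virus in P635L hearts 68 rose and 30 fell, 2.46% beside 4.26%. The median level of the class was 0.555 CPM and that of other genes 15.4 CPM, and the part of depth in the smaller shares was not tested. In WT Ctr, Strit1, Gm12295, ENSMUSG00000120208 and ENSMUSG00000121059 were above that class median in every library, and ENSMUSG00000120166 was below it in every library.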

How the data were processed

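The 5 genes and the lists used here were chosen with earlier results of these data known. The deposited table holds the authors' raw counts per gene, with exon coordinates and lengths per the file headers. STAR 2.7.9a, featureCounts 2.0.6, DESeq2 and the build GRCm39 are named in the submitters' processing notes. The annotation and the use of strand in counting are not given in the sources used here. The authors' deposited tables of 3 comparisons with WT Ctr hold log2 fold changes, p-values and a mean signal of normalised counts from DESeq2, and rMATS inclusion differences, read here as a score from -1 to 1, with FDR values; the order of libraries within a group is not stated there.

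Tests used edgeR 4.0.16 under R 4.3.3, with its robust two-sided quasi-likelihood test, TMM factors and filterByExpr (a mean per group over all 16 libraries, 12 residual degrees of freedom; Benjamini-Hochberg over 18662 genes, called under 0.05). CPM uses TMM factors; RPKM divides CPM by the deposited exon length; log2 CPM for likeness used a prior count of 2 and genes with a mean of at least 1 on that scale. Each mouse gave 1 library, and the tests set differences between groups against the spread between mice, estimated over all 4 groups. On simulated counts (3 runs, P635L Ctr against WT Ctr, 18194 to 18260 genes, 200 changed) 54.7% of 2-fold and 79% of 4-fold changes were recovered, with 3.59% false calls.

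Named genes were fixed by rule: the 5 genes; for each, overlapping genes, the nearest gene and the nearest tested gene on each side, and the most abundant gene within 100 kb; the 5 most alike and 2 most opposite genes; Tnpo3, Xist and ENSMUSG00000119584; and the noncoding list where called. Pump genes and like genes beyond these were added after values were seen. Sequences come from GENCODE M21 and RefSeq (GRCm38), which hold 2 of the 5 genes, and no coordinates were converted. Alternatives were DESeq2 1.42.0, other size factors and filters, fewer groups, leaving out libraries, and a replicate block.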

Additional observations from a re-analysis of the deposited data

Results flagged for a closer look

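Among 64 groups of 4 libraries examined for the 5 genes and their tested neighbours, 4 held a library far from the other 3 by Dixon's criterion, and chance gives about 1 in 20. The criterion was read on CPM, not on its log2, and on that scale none of the 4 concerns the 5 genes themselves. This does not mean that their libraries agree. ENSMUSG00000120166 in WT Tnpo3 replicate 3 was at 0.224 CPM, against 2.91 to 3.58 in the other WT Tnpo3 libraries, without meeting the criterion. Cd180 stood at 5.57 CPM in WT Ctr replicate 1, against 0.877 to 1.44 in the other WT Ctr libraries. Thoc2l stood at 22.3 CPM in P635L Ctr replicate 4, against 31 to 31.3, and at 34.3 CPM in P635L Tnpo3 replicate 4, against 37.8 to 38.3. Zfp951 stood at 1.87 CPM in WT Tnpo3 replicate 3, against 1.21 to 1.32. The effect of Tnpo3 virus on Tlr4 differed between P635L and WT hearts by -1.37 on the log2 scale (edgeR adjusted p = 0.0106, with a range of 6.65e-06 to 0.0691 over the alternatives).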

How the results depend on the processing

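All 775 values of the 5 genes under the alternatives moved by less than 1 SD of the libraries' log2 CPM. The 5 genes were chosen on their differences between these libraries, so no stability is read from this margin. Leaving out P635L Ctr replicate 3 still moved Strit1 by over 1.5 times, from -9.40 to -10.07 in P635L Ctr against WT Ctr and from 6.74 to 7.42 in P635L Tnpo3 against P635L Ctr. Of the values of neighbouring genes 1687 kept their call, 7 lost it and 5 gained it. Of those of the other named genes, markers and pump genes included, 8261 kept it, 128 lost it and 118 gained it. The count of genes changed in P635L Ctr against WT Ctr (2653) stayed within 1.5 times under every alternative. In P635L Tnpo3 against P635L Ctr (724) it was 2846 with only the groups compared, 1482 without the libraries rich in ENSMUSG00000119584, 1282 without the libraries with Xist above Y-linked genes, 1388 by DESeq2 and 282 to 1022 leaving out 1 library (P635L Ctr replicates 1, 2 and 4 and P635L Tnpo3 replicates 1, 2 and 3 each moved it by over 1.5 times). In WT Tnpo3 against WT Ctr (1) these were 0 without either set of libraries, 4 by DESeq2 and 1 to 3 leaving out 1 library, with 3 reached without WT Tnpo3 replicate 3; 597 genes had an unadjusted p under 0.05. In P635L Tnpo3 against WT Ctr (573) they were 319 without the ENSMUSG00000119584-rich libraries, 1135 by DESeq2 and 282 to 736 leaving out 1 library (WT Ctr replicate 2, P635L Tnpo3 replicates 2 and 4). In P635L Tnpo3 against WT Tnpo3 (694) they were 462 with only the groups compared, 1887 and 386 without either set, 1458 by DESeq2 and 280 to 1220 leaving out 1 library (any replicate of either group). For the interaction (94) they were 146 without the filter, 322 and 54 without either set, 414 by DESeq2 and 52 to 221 leaving out 1 library (WT Ctr replicate 3, WT Tnpo3 replicate 4, P635L Ctr replicates 2 and 4, P635L Tnpo3 replicates 1, 2 and 3). The cause of these moves was not tested. Libraries with the same replicate number did not deviate together as a set (6 of 24 pairs with r over 0.1, median -0.0575). Same-number pairs of WT Ctr and WT Tnpo3 had r of 0.0964, 0.108, 0.276 and 0.552 for replicates 1 to 4. Between different numbers r was at most 0.251. Both WT replicate 4 libraries were rich in ENSMUSG00000119584 and had Xist above Y-linked genes. With the replicate block the counts were 2487, 677, 1, 490, 547 and 113 in the order P635L Ctr against WT Ctr and then as above. The block changed no call of a neighbouring gene, and the labels do not say that a number marks a shared source. Depth limits Strit1 in P635L Ctr and ENSMUSG00000120166 in WT Ctr, where single libraries held 1 to 14 counts.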
